A study of Mus musculus with 18 samples.

Results

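The genes of the cytosolic ribosome were followed through lists of lamin B1 domains, H3K9me3 regions and Foxa2 sites in mouse liver, as a reference set of housekeeping genes. The set held 75 of the 20807 protein-coding genes that GENCODE vM21 places on chromosomes 1 to 19 of mm10. Members were taken by symbol alone (Rpl or Rps with a number and at most 1 further letter, or Rplp0, Rplp1 and Rplp2). No measured value entered this rule, but the family was chosen with earlier results of these data known. By this rule 29 members encode proteins of the small subunit, 43 proteins of the large subunit and 3 proteins of the stalk. The further letter also admits 4 paralogues with their own symbols, Rpl3l, Rpl10l, Rpl39l and Rps27l, and leaves out ribosomal proteins named otherwise (such as Rpsa, Fau and Rack1).

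The cytosolic ribosome translates all nuclear-encoded mRNA, and its protein genes are transcribed at high and balanced rates in nearly every cell, the hepatocyte included. Lamin B1 is an intermediate filament protein of the nuclear lamina, the meshwork under the inner nuclear membrane. Lamina-associated chromatin is best known as gene-poor and silent and often carries methylated lysine 9 of histone H3, of which the trimethylated form, H3K9me3, marks constitutive heterochromatin. Foxa2 is a forkhead transcription factor that binds promoters and enhancers of liver genes and can occupy closed chromatin.

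The series comprised 18 ChIP-Seq samples of whole liver, a tissue in which hepatocytes are mixed with other cells. Lamin B1, H3K9me3 and H3K9me2 were profiled in male C57BL/6 mice aged 3 months (young) and 21 months (old), with 2 replicates for each antibody and age. Foxa2 was profiled at 12 weeks of age in Zmpste24 mutants, which lack the protease that matures prelamin A in all tissues, and in wild-type littermates, with 3 replicates for each genotype. Replicates had been merged before regions were called, so that each condition was represented by 1 list of positions with no signal and no spread; the differences described here were therefore not tested, and the depth behind a list cannot be read from it. H3K9me2 was not analysed here, and the loss of Zmpste24 cannot be checked from a list of sites.

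On chromosomes 1 to 19 the lamin B1 lists covered 466 Mb at the young and 930 Mb at the old age, and the H3K9me3 lists 576 and 616 Mb. According to the study, lamin B1 was sequenced less deeply in old than in young livers, and H3K9me3 more deeply; the part of depth in these lists was not tested. The wild-type Foxa2 list held 4960 sites and the mutant list 8177. Of 12 hepatocyte genes, 5 had a Foxa2 site within 5 kb of the start in each genotype (41.7%), beside 6.07 and 6.12% of all genes. Apoa2, Apob and Fgb were among them in both genotypes, and Alb was not (10.3 and 5.63 kb). In young and old lamin B1 domains lay 4 and 5 of the 12 (33.3 and 41.7%), beside 38.0 and 65.7% of all genes. H3K9me3 regions held 0 and 1 (0 and 8.33%), beside 13.6 and 25.7%.

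Lamin B1 domains contained the start sites of most ribosomal protein genes, and of nearly all in old livers. In young livers 42 of 75 start sites lay inside a domain (56.0%), beside 38.0% of all protein-coding genes. In old livers the number was 69 (92.0%), beside 65.7% of all genes. The domains of both ages thus held a larger share of this set than of genes at large. With the 4 paralogues set aside, the shares of the other 71 members were 57.7% (young) and 94.4% (old). By contrast, the 1087 olfactory receptor genes, a family silent in liver and often placed in lamina-associated chromatin, lay in the same lists in only 3.04% (young) and 7.18% (old) of cases. In H3K9me3 regions the olfactory receptors were at 25.3% (young) and 8.83% (old), and 0.368% (wild type) and 1.66% (mutant) had a Foxa2 site within 5 kb. The lists labelled lamin B1 thus held housekeeping genes more often than genes of this silent family, the reverse of the textbook order.

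**Figure D1:**
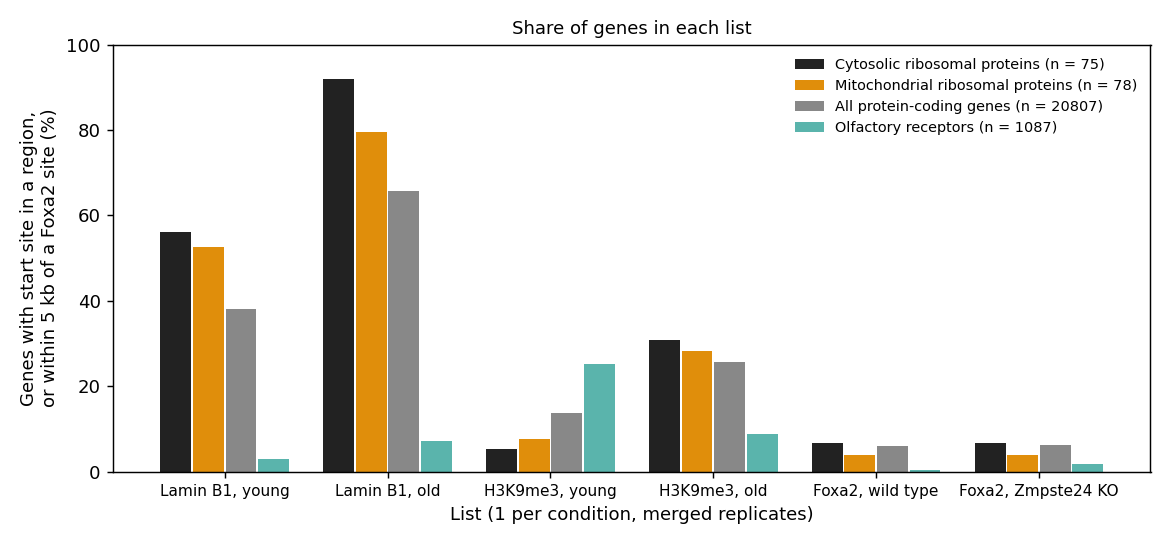
Share of genes (vertical axis, percent) whose start site lay inside a region of each of 4 lists or within 5 kb of a Foxa2 site, for 75 cytosolic ribosomal protein genes, 78 mitochondrial ribosomal protein genes, all 20807 protein-coding genes and 1087 olfactory receptor genes. Each bar is 1 merged list, with no error. Cytosolic ribosomal protein genes reached 92.0% in old lamin B1 domains and stood below all genes in young H3K9me3 regions (5.33% beside 13.6%).

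Sorted by age, 40 members were inside domains in both young and old livers (53.3%, beside 33.5% of all genes). Another 29 were inside in old livers only (38.7%), where the background was 32.2%. Members inside in young livers only numbered 2 (2.67%), beside 4.49% of all genes, and 4 were inside at neither age (5.33%, beside 29.8%). Of the 33 members outside domains in young livers, 29 were inside in old livers (87.9%), whereas 51.9% of all genes outside in young livers were. Of the 42 members inside in young livers, 40 were inside in old livers too (95.2%), beside 88.2% of all genes.

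**Figure D2:**
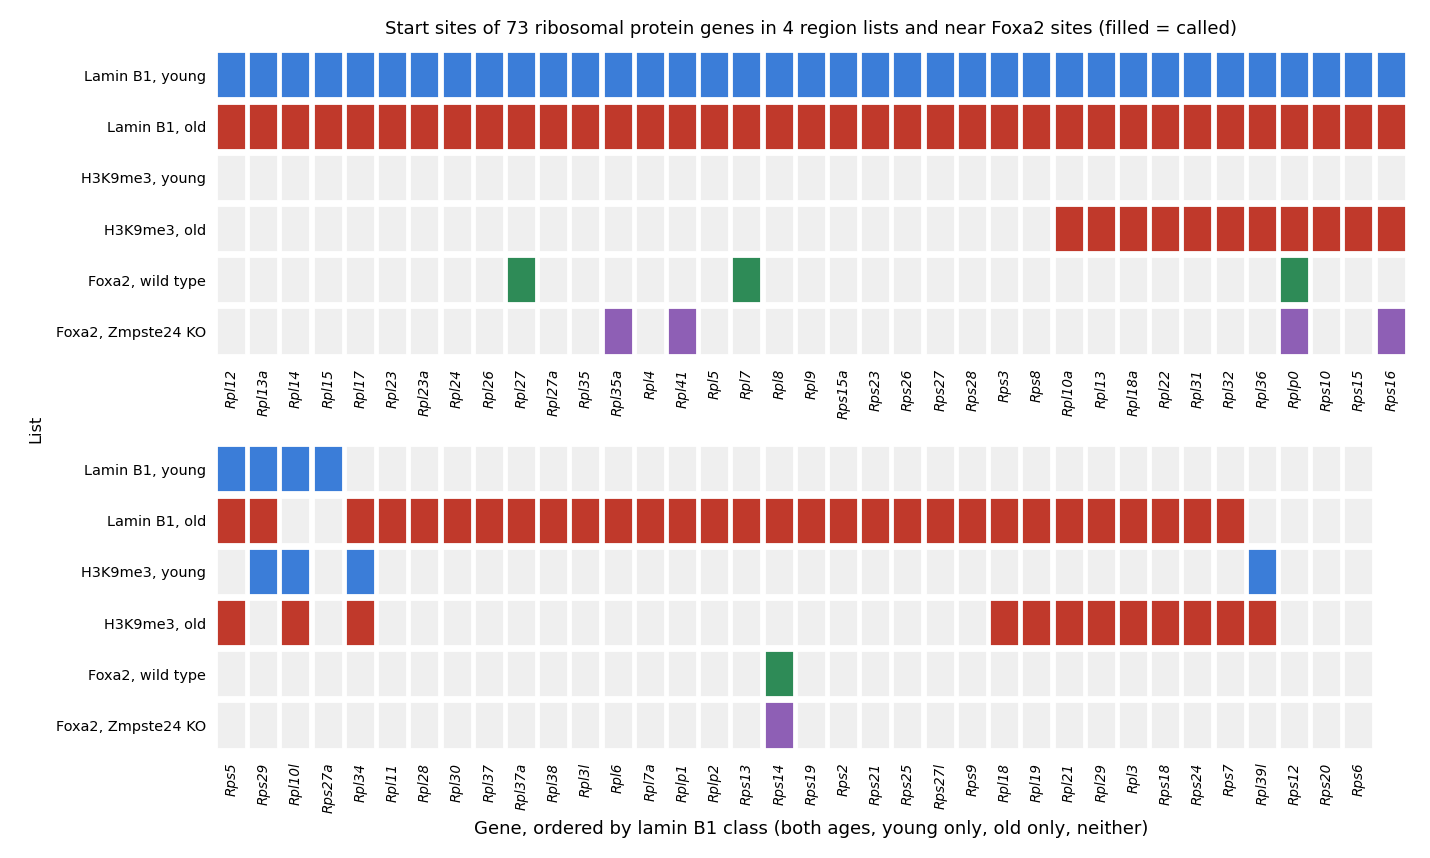
Each column is 1 of 73 genes drawn of the 75 and each row 1 list. A filled square marks a start site inside a lamin B1 or H3K9me3 region, or within 5 kb of a Foxa2 site. Genes run from those in lamin B1 domains at both ages (39 drawn) through young only (2) and old only (28 drawn) to neither (4). H3K9me3 squares number 4 in young and 23 in old livers.

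Genes inside domains at both ages, and farthest from an edge, belonged to both subunits. Rpl22, whose product binds RNA in the large subunit, started 3026 kb inside an old domain of 6210 kb, but only 4.26 kb inside its young domain of 420 kb. Rps10, whose protein sits near the mRNA entry of the small subunit, started 23.3 kb from the edge of a 120 kb young domain and 2443 kb from that of a 6160 kb old domain. Rpl14 showed the same order, at 11.4 kb (young) and 2169 kb (old). At each of these genes the old domain was larger than the young one and enclosed it.

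Rpl26, near the exit of the nascent chain, lay 262 kb (young) and 2092 kb (old) inside its domains. Rpl10a lay 38.5 and 1752 kb inside, and Rpl27 272 and 1482 kb inside. Rpl5, which carries the smallest rRNA into the large subunit and can bind Mdm2, showed the opposite order. Its young domain extended over 610 kb and its old domain over 250 kb, and its distance from the edge was 259 kb (young) and 30.5 kb (old). Rpl35a had the same order, with domains of 1290 kb (young) and 490 kb (old), so that a gene inside at both ages could lie in a shorter domain in old livers.

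Among the 29 genes inside in old livers only, Rpl6 lay deepest, 3446 kb inside a domain of 8550 kb, although its start had been only 25.5 kb from a young domain. Rplp1 of the stalk, the flexible arm that recruits elongation factors, lay 1535 kb from the nearest young domain and 1465 kb inside an old one. Rplp2, its partner, lay 3987 kb from the nearest young domain, the largest distance of the 29, and 253 kb inside an old one. Rplp0, which anchors both on the ribosome, was inside at both ages, at 89.5 kb (young) and 221 kb (old) from the edge. The 3 stalk genes were thus all inside domains in old livers, but only Rplp0 in young ones.

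Rpl18 lay 84.5 kb outside a young domain and 1455 kb inside an old one. Rps21 went from 303 kb outside to 1253 kb inside. Rps19, the gene most often mutated in Diamond-Blackfan anaemia, went from 214 kb outside to 566 kb inside. Rpl11, the partner of Rpl5 in the same particle, went from 16.6 kb outside to 417 kb inside, so that this pair fell into different classes. That split depends on the start used. With the start of any annotated transcript, 43 members in place of 42 were inside in young livers, and Rpl11 was the one added. Rpl11 was also 1 of 3 members cut by a region edge in any list, with 6.90% of its body of 25.2 kb in a young domain and 100% in an old one.

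Rps2 and Rpl3l start 9.70 kb apart and changed as a pair, from 428 and 438 kb outside to 798 and 808 kb inside. Of the 29, 19 lay in old domains that overlapped a young domain elsewhere along their length (65.5%, beside 63.7% of all genes inside in old livers only). The other 10 lay in old domains with no young counterpart. The distance from the start to the nearest young domain was 281 kb at the median (308 kb for all such genes), close to the value for genes at large.

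Both genes inside in young livers only are unusual members. Rps27a encodes a ubiquitin fused to a ribosomal protein; it lay 88.1 kb inside a young domain of 260 kb and 502 kb from the nearest old domain. Rpl10l is an intronless paralogue of Rpl10 known from male germ cells; it lay 64.4 kb inside a young domain of 130 kb and 2786 kb from the nearest old one, and had no other protein-coding start within 500 kb.

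The genes outside at both ages were Rps6, Rps12, Rps20 and Rpl39l. Rps6, the substrate of the S6 kinases, missed an old domain by 2.59 kb, less than the 10 kb window in which domains had been called, and lay 107 kb from a young one. Rpl39l, another paralogue of the male germ line, lay 69.8 kb from an old and 140 kb from a young domain. Rps12 lay 92.7 and 333 kb away, and Rps20 35.7 and 576 kb. Rps20 stood in the emptiest setting of the 4, with 3.00% of the surrounding 1 Mb in old domains and 0% in young ones.

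**Figure D3:**
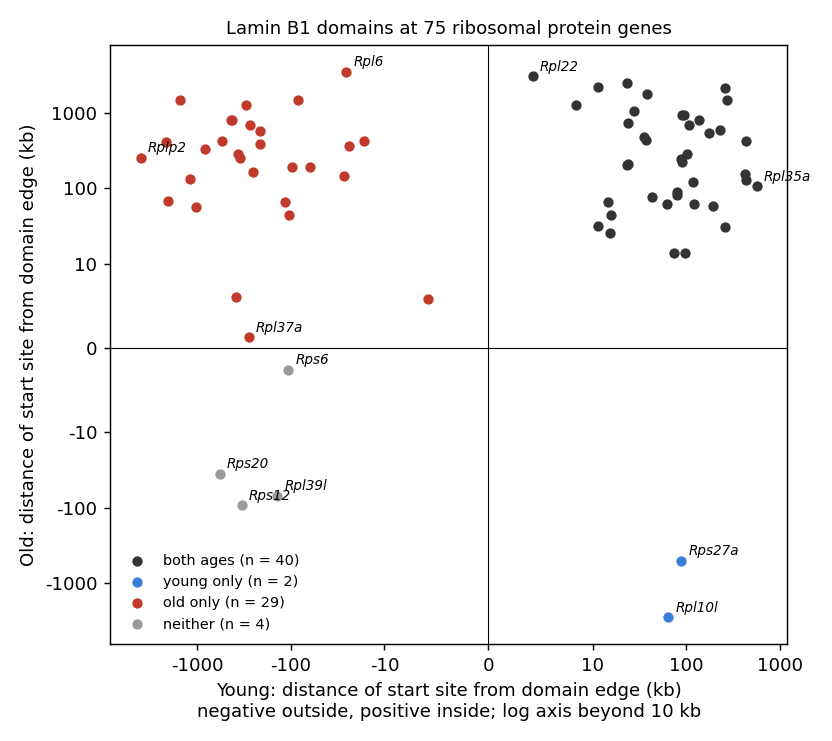
Distance (kb) of each start site from the nearest lamin B1 domain edge in young (horizontal) and old (vertical) livers, positive inside and negative outside a domain, on axes that are logarithmic beyond 10 kb. Points are the 75 genes, coloured by class. Most lie above the horizontal line, and Rps6 sits just under it, 2.59 kb outside an old domain.

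Few of the starts inside domains lay close to a border, among members as among all genes. Inside young domains the distance to the edge ran from 4.26 to 564 kb with a median of 84.4 kb, and inside old domains from 1.29 to 3446 kb with a median of 253 kb. In young livers 2 members, and in old livers 3, started within 10 kb of the edge of their domain. The latter were Rpl37a (1.29 kb), Rps13 (5.80 kb) and Rps9 (6.01 kb), named here after their values were seen. With only starts at least 10 kb inside counted, the share of members went from 56.0 to 53.3% (young) and from 92.0 to 88.0% (old). For all genes it went from 38.0 to 35.3% and from 65.7 to 62.6%.

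Genes in 1 domain are not independent observations, and in old livers some domains held several. The 42 members inside in young livers were spread over 40 domains. The median length of the domain around a member was 395 kb, beside 440 kb over all protein-coding genes in young domains. The 69 in old livers lay in 62 domains, of which 4 held 11 members together, and the median domain around a member was 1430 kb, beside 1170 kb over all protein-coding genes in old domains. Rps2, Rpl3l, Rps10 and Rpl10a shared an old domain of 6160 kb at chr17:23920001-30080000 that contained 191 protein-coding starts. Rpl7a and Rpl12 shared chr2:26780001-34220000.

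Around the start sites, coverage by lamin B1 domains was highest near the start. In old livers the point 5 kb downstream of the start was inside a domain for 92.0% of members, compared with 69.3% at 495 kb upstream and 70.7% at 495 kb downstream; for all genes these shares were 65.2, 57.4 and 58.2%. In young livers the shares for members were 54.7% at the gene, 32.0% upstream and 36.0% downstream, beside 38.1, 28.4 and 28.6% for all genes. The young profile of the members was not a narrow peak. Downstream the share rose and fell, from 52.0% at 65.0 kb to 45.3% at 115 kb and from 50.7% at 185 kb to 45.3% at 225 kb. At 365 kb it was 53.3% (29.9% for all genes).

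**Figure D4:**
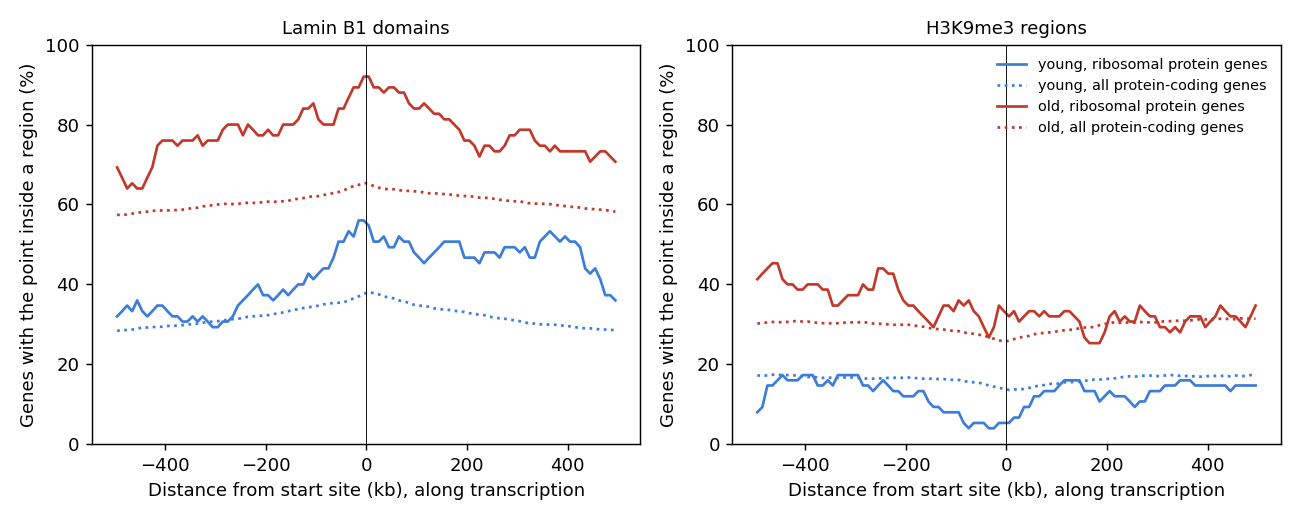
Share of genes (percent) for which a point at a given distance (kb, along transcription) from the start site lay in a lamin B1 domain (left) or an H3K9me3 region (right). Solid lines are the 75 ribosomal protein genes, dotted lines all protein-coding genes, blue young and red old. Lamin B1 coverage of the members is highest near the start at both ages and in young livers stays near that level downstream (53.3% at 365 kb), while young H3K9me3 coverage dips there, to 5.33% at 5 kb downstream.

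Ribosomal protein genes lie among many neighbours, with a median of 20 protein-coding starts within 500 kb beside 16 for all genes. With all genes split at the quartiles of this number (8, 16 and 28 starts), members stood above all genes in old domains in each of the 4 strata, from the sparsest (86.7%, n = 15, beside 47.7%) through 81.2% (n = 16, beside 69.8%) and 95.0% (n = 20, beside 72.7%) to the densest (100%, n = 24, beside 73.0%). In young domains the third stratum was an exception, at 40.0% beside 40.4%. The other strata gave 53.3% beside 26.1%, 68.8% beside 38.6% and 62.5% beside 47.2%.

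H3K9me3 regions held few of these genes in young livers and more in old ones. The start lay in a young region for 4 members (5.33%), beside 13.6% of all genes, and in an old region for 23 (30.7%), beside 25.7%. Of these, 3 were inside at both ages, 1 in young livers only (1.33%, beside 6.19%) and 20 in old livers only (26.7%), beside 18.2% of all genes. The remaining 51 were outside at both ages (68.0%, beside 68.1%). Of the 71 members outside in young livers, 20 were inside in old ones (28.2%), beside 21.1% of all genes. The members thus went from below the background to slightly above it.

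Rpl10l and Rpl39l were 2 of the 4 members in young H3K9me3 regions, and both kept a region in old livers. Rpl10l started 65.6 kb inside a young region of 220 kb and 24.4 kb inside an old region of 120 kb. Rpl39l started 39.8 kb inside a young region of 90.0 kb and 29.8 kb inside an old one of 80.0 kb. The other members in young regions, named here because there are so few, were Rpl34, 29.6 kb inside in young and 10.4 kb inside in old livers, and Rps29, 20.8 kb inside in young and 59.2 kb outside in old livers. With the 4 paralogues Rpl3l, Rpl10l, Rpl39l and Rps27l set aside, 2 of the other 71 members lay in young H3K9me3 regions (2.82%) and 21 in old ones (29.6%).

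The members deepest in old H3K9me3 regions were Rpl36 (313 kb from the edge), Rps16 (261 kb), Rpl31 (152 kb), Rps10 (143 kb) and Rpl3 (128 kb). Rpl3 forms part of the surroundings of the peptidyl transferase centre; its nearest young region was 31.9 kb away. Rpl18 followed at 95.5 kb, Rpl22 at 85.7 kb, Rpl19 at 63.3 kb, Rpl10a at 61.5 kb and Rps18, of the head of the small subunit, at 46.0 kb. Rpl22 lay in the longest of these regions, 2600 kb. Rpl19 had been farthest from a young region, by 1023 kb. Rplp0 started 19.5 kb inside an old region and 151 kb from the nearest young one.

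Of the 20 members inside in old livers only, 14 lay in old regions that overlapped a young region (70.0%), beside 40.8% of all genes with this change. Their distance to the nearest young region was 148 kb at the median, beside 262 kb for all such genes. The other 6 lay in old regions without a young counterpart.

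Lamin B1 and H3K9me3 were seldom found together at these genes in young livers. Of the 42 members in young lamin B1 domains, 2 also lay in young H3K9me3 regions (4.76%, beside 12.7% of all genes in those domains), and of the 33 outside, 2 did (6.06%, beside 14.2%). In old livers 21 of 69 members inside domains had H3K9me3 (30.4%, beside 33.5%), and 2 of 6 outside (33.3%, beside 10.8%). Those 2 were Rpl10l and Rpl39l. The other 21 members in old H3K9me3 regions were thus all in old lamin B1 domains as well, as were most members.

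Whole gene bodies gave nearly the same counts as starts, as the genes are short, with a median length of 3.37 kb beside 17.6 kb for all genes. A young lamin B1 domain touched 43 members (57.3%, background 40.9%) and an old one 69 (92.0%, background 68.3%). H3K9me3 regions touched 4 members in young livers (5.33%, background 17.4%) and 24 in old ones (32.0%, background 31.2%). The added genes were Rpl11 for young lamin B1 and Rps3, with 36.0% of its body covered, for old H3K9me3, named after its value was seen.

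By subunit, 14 of 29 small subunit genes were in young and 25 in old lamin B1 domains, and 27 and 41 of 43 large subunit genes. H3K9me3 regions held 1 and 7 of the small and 3 and 15 of the large subunit genes at the 2 ages. Members that host snoRNA genes in their introns, which guide modification of rRNA, numbered 26 and held 51 snoRNA genes. Of these hosts 15 were in young and 24 in old lamin B1 domains, 0 in young and 6 in old H3K9me3 regions. The shares over all genes were 38.0 and 65.7% for lamin B1 and 13.6 and 25.7% for H3K9me3, young and old in turn, so that in old H3K9me3 regions the small subunit genes (24.1%) and the snoRNA hosts (23.1%) stood near the background.

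Foxa2 sites were about as frequent at ribosomal protein genes as at any gene. In wild-type livers 5 of 75 members had a site within 5 kb of the start (6.67%), beside 6.07% of all genes. In Zmpste24 mutant livers 5 members had one (6.67%), beside 6.12%. The wild-type genes included Rpl7, Rplp0, Rpl27 and Rps14, and the mutant genes were Rplp0, Rps16, Rpl41, Rpl35a and Rps14, so that Rplp0 and Rps14 were on both lists. Near the limit of 5 kb were Rpl41 at 3.88 kb (mutant) on the inner side, and Rpl29 at 6.87 kb (wild type) and Rpl37 at 8.76 kb (mutant) on the outer side.

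Farther out, the members stood somewhat nearer to Foxa2 sites than genes at large. The median distance from the start to the nearest site was 92.5 kb in wild type (137 kb for all genes) and 73.2 kb in the mutant (95.7 kb). In the densest stratum by neighbours the wild-type medians were 126 kb for members and 121 kb for all genes. From the sparsest on, the other strata gave 115, 95.7 and 67.3 kb beside 179, 134 and 124 kb. In the mutant the members were nearer in each stratum. Within 50 kb a site was found for 22 members in wild type (29.3%, beside 25.7%) and for 31 in the mutant (41.3%, beside 32.2%). The mutant list held more sites genome-wide, and this cannot be told apart from the genotype in these distances.

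**Figure D5:**
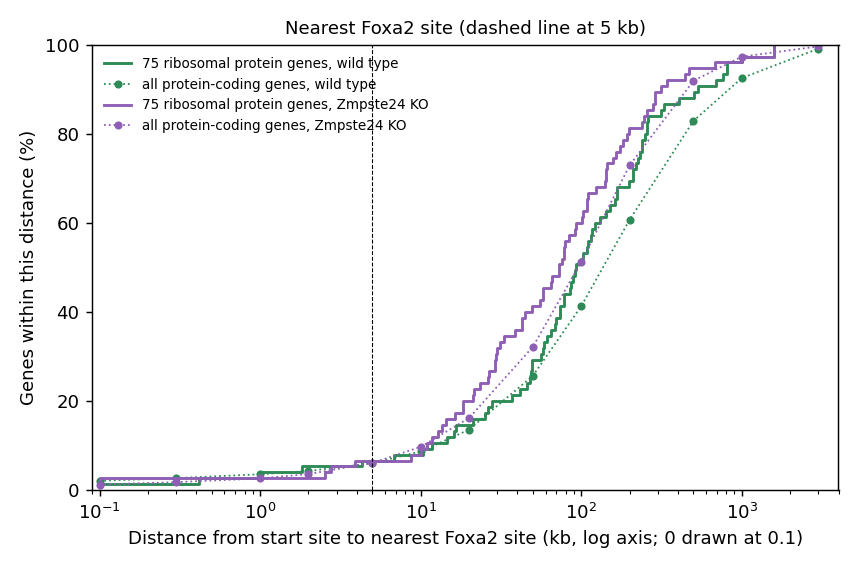
Share of genes (percent, vertical) with a Foxa2 site within a given distance of the start (kb, logarithmic, horizontal; 0 drawn at 0.1). Solid lines are the 75 ribosomal protein genes, dotted lines with points all protein-coding genes, green wild type and purple Zmpste24 mutant. At the dashed line of 5 kb all of them stand between 6.07 and 6.67%.

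Rplp0 was the only member whose start was covered in both genotypes by overlapping sites. The wild-type site was chr5:115559211-115559914 (704 bp) and the mutant site chr5:115559182-115559536 (355 bp), both over the first bases of the gene. The 256 bases shared by both sites upstream of the start (GRCm38.p6, chr5:115559211-115559466, plus strand) are shown because they are the only promoter of the set bound in both lists. They have a GC content of 57.8% and 19 CG dinucleotides. Capitals mark the forkhead-like word TGTTTAT.
Rplp0: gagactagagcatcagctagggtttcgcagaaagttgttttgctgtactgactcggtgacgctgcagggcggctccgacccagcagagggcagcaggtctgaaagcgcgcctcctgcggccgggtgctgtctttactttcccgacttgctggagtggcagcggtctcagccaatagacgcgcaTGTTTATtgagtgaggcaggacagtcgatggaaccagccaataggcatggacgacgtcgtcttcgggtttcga

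Rpl27 had a wild-type site inside the gene, at chr11:101442717-101443502, beginning 419 bp downstream of the start. It was the only member site with the forkhead core TGTTTAC, which lies in an intron, 1133 bp from the start. The core is shown with its flanks (GRCm38.p6, chr11:101443416-101443452, minus strand), capitals marking the core.
Rpl27: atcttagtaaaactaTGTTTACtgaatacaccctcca

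The core TGTTTAC, sought on both strands, was found in 27.8% of 4912 wild-type and 23.4% of 8051 mutant sites on chromosomes 1 to 19. Among the sites near members, 1 of 5 wild-type and 0 of 5 mutant sites held it. The core or any of its variants, which were the word TGTTTAT, the further word TATTTAC and the last word TGTTTGC, was found in 66.5 and 64.1% of all sites. Among member sites these words were found in 3 of 5 in wild type (Rpl7, Rplp0 and Rpl27) and in 1 of 5 in the mutant (Rplp0). A word is a match of letters and no measured contact.

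Other sites lay beside the starts of their genes, with Rps14 in the mutant as the exception. Rpl7 had a wild-type site at chr1:16106478-16107502, 1.82 kb upstream of its start and inside Rdh10, which had the nearer start. Rps16 had a mutant site at chr7:28353398-28354873, 2.75 kb downstream of the start. Rpl41, which encodes a very short basic peptide, had a mutant site of 280 bp at chr10:128553190-128553469, 3.88 kb upstream.

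Rpl35a had a mutant site at chr16:33058988-33059935, 2.54 kb downstream of the start, over an exon. Rps14, a small subunit gene whose loss features in a human myelodysplastic syndrome, had a site in each genotype. It lay 1.03 kb upstream of the annotated start in wild type and over that start in the mutant. These sites did not overlap each other, and both also touched the gene Ndst1. The annotated body of Rps14 is long, at 31.4 kb beside a median of 3.37 kb for the set. No RefSeq start was matched for it, so its start could not be checked. Of the 8 members with a site, Rplp0 and Rps16 lay in old H3K9me3 regions, and all 8 lay in old lamin B1 domains, as did 92.0% of all members (30.7% for old H3K9me3); the difference was not tested.

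Some features of the promoters, which the rule did not use, were more frequent in the set than in all promoters. At most annotated starts of members, however, neither a C nor a pyrimidine tract was found. A RefSeq promoter (250 bases before and 50 after the start, GRCm38.p6) was matched for 55 of the 75 members. Of these RefSeq starts 36 lay within 50 bp of the GENCODE start, as did 10285 of 15664 over all genes. A tract beside the annotated start is missed, and Rpl27a, with a T start and 16 pyrimidines, was not counted. The counts thus hold for annotated starts only. The base at the RefSeq start was C in 19 of the 55 (34.5%), beside 14.0% of 15664 promoters. A C followed by an unbroken run of pyrimidines, at least 5 in all, the terminal oligopyrimidine (TOP) tract that links translation of these mRNAs to growth signals, was present in 12 (21.8%), beside 2.20% of all promoters and 0 of 69 promoters of mitochondrial ribosomal proteins. The median ratio of observed to expected CG was 0.877, beside 0.615, at a like GC content (57.0% beside 57.3%). The core TGTTTAC was present in 1 member promoter, that of Rpl41 (1.82%, beside 2.94%).

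To show the TOP tract, 15 bases on each side of the RefSeq start are given for Rps6, which was outside lamin B1 domains at both ages, Rps15a, which was inside at both, and Rpl28, which was inside in old livers only. Rpl3l, the paralogue of striated muscle, follows as a member without a tract and with a CG ratio of 0.0892. Capitals mark the start base and the pyrimidines that follow it. The windows (GRCm38.p6) are chr4:86857353-86857382 on the minus strand, chr7:118116133-118116162 on the minus strand, chr7:4792950-4792979 on the plus strand and chr17:24727811-24727840 on the plus strand.
Rps6: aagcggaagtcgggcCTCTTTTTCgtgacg
Rps15a: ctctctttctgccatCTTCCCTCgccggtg
Rpl28: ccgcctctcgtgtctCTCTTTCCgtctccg
Rpl3l: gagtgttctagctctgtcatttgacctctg

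Most other sets of translation genes stood above all genes in lamin B1 domains, where the shares over all genes were 38.0% (young) and 65.7% (old). For H3K9me3 those shares were 13.6 and 25.7%, and for Foxa2 6.07% (wild type) and 6.12% (mutant). Mitochondrial ribosomal proteins (78 genes) were inside in 52.6% (young) and 79.5% (old) of cases and in H3K9me3 regions in 7.69 and 28.2%; 3.85% had a Foxa2 site within 5 kb in each genotype. The next set (52 genes) was taken by Eif symbol and held initiation factors together with regulators such as Eif2ak1 and Eif4ebp1. It gave 59.6 and 86.5% for lamin B1, 5.77 and 15.4% for H3K9me3, and 1.92% (wild type) and 7.69% (mutant) for Foxa2. Of 7 genes named as elongation factors 5 were in young and 7 in old lamin B1 domains, 0 and 2 in H3K9me3 regions, and 2 near a Foxa2 site in each genotype.

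Of the 4 ribosomal proteins named otherwise, 3 were in young and 4 in old lamin B1 domains, and Rpsa alone was in an old H3K9me3 region. Rack1, a scaffold on the small subunit, was the one that entered a domain in old livers only. Of 3 paralogues outside the rule (Rpl7l1, Rpl22l1 and Rpl36al), 1 and 2 were in lamin B1 domains (33.3 and 66.7%, near the shares over all genes) and 0 in H3K9me3 regions. Of 19 ribosome assembly genes 11 and 17 were in lamin B1 domains, 0 and 3 in H3K9me3 regions, and 0 and 1 near Foxa2 sites. Shares above those of all genes in the lamin B1 lists were thus also seen in other genes of translation, apart from these 3 paralogues.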

How the data were processed

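Reads had been mapped by the authors with BWA (mm10) and freed of duplicates with Picard; the authors then merged replicates, called lamin B1 domains with Epic (the labels name SICER) and Foxa2 sites with PeakSeq after reducing the mutant reads to the wild-type number. The caller of the H3K9me3 regions is not given in the methods, and the age of those lists rests on their names; they hold fewer regions than the study describes. The deposited lists hold positions without any signal or depth, so no interval or floor can be given. Domains end on the last base of windows of 10 kb. All coordinates count from 1.

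Start sites were those of GENCODE vM21, with an overlap of at least 1 bp counted as inside. Counts stand beside the same counts over all protein-coding genes, and no test was possible with 1 merged list per condition. Computations used Python 3.11.15, numpy 2.4.6, pyfaidx 0.9.0.4 and matplotlib 3.10.9. The overlap and distance code was tested on simulated data (0 wrong of 4000 queries).

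Members and lists were chosen with earlier results of these data known. Named genes were every member near a Foxa2 site, the 12 deepest in H3K9me3 regions, all of a lamin B1 class of at most 12 members or otherwise its 6 farthest from an edge, and always Rpl5, Rpl11, Rplp0, Rplp1, Rplp2, Rps6 and Rps19. Comparison lists were mitochondrial ribosomal proteins, genes named as initiation factors (by Eif symbol, regulators included) or elongation factors, ribosomal proteins with other symbols, paralogues, assembly genes, olfactory receptors and hepatocyte genes. Some of the genes that these rules and lists include are counted but not reported here by name.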

Additional observations from a re-analysis of the deposited data

How the results depend on the processing

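Of 48 alternative values for 14 counts, 46 remained within 1.5 times the count given. They covered the start of any annotated transcript, starts at least 10 kb inside an edge, lists without regions shorter than 50 kb, at least 50 percent of the gene body, Foxa2 windows of 10 kb and, chosen after seeing the data, RefSeq starts. The exceptions were the Foxa2 counts within 1 kb of the start, with 2 members in wild type and 2 in the mutant in place of 5 and 5, the all-gene shares then being 3.59 and 2.65%. The ratio of 1.5 was applied to member counts alone, so it does not test the comparison with all genes. For lamin B1 and H3K9me3 that comparison kept its direction in every alternative. For Foxa2 it did not. With windows of 10 kb, or the start of any annotated transcript, members stood below all genes in both genotypes. Within 1 kb they stood below all genes in wild type. No paired analysis was possible because replicates had been merged before regions were called, and for the same reason no replicate could be left out. Depth and the calling threshold could not be varied. A gene outside a list is one where no region was called, which does not show that the protein or mark was absent.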
